A study of Mus musculus with 444 samples.

Results

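Estrogen and progesterone reach the mammary epithelium through sensor cells that hold their receptors, which then instruct their neighbours with secreted ligands. The 8 genes described here cover that chain and the receptor of prolactin. They comprise the hormone receptors Esr1 (estrogen receptor alpha), Pgr (progesterone receptor) and Prlr (prolactin receptor), the receptor cofactors Foxa1 and Cited1, and the paracrine mediators Areg (amphiregulin), Wnt4 and Tnfsf11 (RANKL). They were picked by name for these roles and were matched through the Entrez gene identifiers of the count files, where all 8 were present among the 25136 genes analysed.

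The cells came from the total epithelium of mammary glands, taken from the inbred strain FVB/NJ at Puberty (5 weeks of age by the study's designation, although sample names inside the files give a younger week) and as Adult (10 weeks of age). The labels name no treatment and no altered allele in either group, and per the study's methods the mice were female and the glands of several were pooled for each sort. Cells were held singly in a Fluidigm C1 microfluidic chip, and 221 pubertal and 223 adult libraries were listed, of which 171 and 152 had at least 100000 read pairs and 1500 genes. The study reports several independent experiments for these stages, but the labels do not tie a cell to any of them. They also name no animal, sort or oestrous stage. Each stage therefore stood as 1 sample, no test was made, and every interval below (95%, exact) covers counting error only.

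As background, estrogen acting on ESR1 induces amphiregulin, which signals through the epidermal growth factor receptor and is required for the ducts to lengthen at puberty. Progesterone acting on PGR induces WNT4 and RANKL, which drive side branching and the growth of neighbouring cells that lack the receptor. FOXA1 opens chromatin for ESR1, CITED1 is a transcriptional coactivator of ESR1, and PRLR signals through JAK2 and STAT5 and is needed for the alveoli of pregnancy.

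All cells were compared at 1 depth, by drawing 100000 read pairs from each, so that 1 read pair equals 10 CPM, the usual depth-scaled count, and a gene was called detected in a cell from 1 read pair on. The retained pubertal cells had 101471 to 1354378 read pairs before this step (median 309941) and the adult cells 100883 to 1049746 (median 331034). A cell was put in the luminal-keratin class if its read pairs from Krt8 and Krt18 outnumbered those from Krt5 and Krt14, and in the basal-keratin class in the opposite case. This gave 135 luminal-keratin and 33 basal-keratin cells in puberty and 92 and 59 in the adult, with 3 and 1 undecided. The classes are ranges on a scale and not cell types. In puberty 14 cells and in the adult 26 cells lay within 2-fold of the limit. Of 9 basal markers, a median of 1 was detected per pubertal luminal-keratin cell but 6 per adult luminal-keratin cell. The adult libraries whose titles carry the numbers 48 to 188 (107 retained cells, with a median of 7 basal markers in their 60 luminal-keratin cells) stood apart from the other adult libraries (45 cells, with a median of 3.5 in 32). Of 7683 genes, 27.9% were at least 2-fold higher and 26.2% at least 2-fold lower in the other adult cells than in cells 48 to 188. The labels do not say what separates these libraries, so the stage levels are given against both sets, and other adult values are pooled unless the set is named. Cells with 3 or more of 6 fibroblast markers numbered 16 in puberty and 11 in the adult. Those with 3 or more of 4 endothelial markers numbered 8 and 1. No cell had 3 or more of the immune, adipocyte or pericyte markers.

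The promoters of the members are shown first, since several of the 8 genes are known targets or partners of the same hormone-bound factors. The RefSeq table (GRCm38.p6, the same assembly as the mm10 used for the counts) holds 13 start sites for the 8 genes, and the 250 bases before each were searched on both strands for GGTCA (the half-site of the estrogen response element), the full palindromic element of paired half-sites, TGTTTNC (a forkhead motif, bound by the FOXA family) and TGACGTCA (the cyclic AMP response element). The last motif was added after the sequence had been seen. None of the 13 windows held the full element, which 0.0639% of all 32851 promoter windows of this length held. The half-site lay in 3 windows, 1 of Foxa1 and 2 of Cited1, against 35.2% of all windows. The forkhead motif lay in 3 windows, of Esr1, Foxa1 and Prlr, against 17.8% of all. The cyclic AMP response element lay in the window of Areg, 61 to 54 bases before the start, and in 1.55% of all windows. The windows of Pgr, Wnt4 and Tnfsf11 held none of these letters. The 4 windows below, of Esr1, the cofactors Foxa1 and Cited1 and the ligand Areg, each hold a match and do not stand for all 13. The window of Pgr, which the co-detection results also draw on, is not shown. Each window shown runs 5′ to 3′ on the strand of the gene and ends at the base before the start, with every motif match in capitals. They lie at chr10:4611739-4611988 (Esr1, plus strand, first start site), chr12:57546112-57546361 (Foxa1, minus strand), chrX:102252182-102252431 (Cited1, minus strand, first start site) and chr5:91139349-91139598 (Areg, plus strand).
Esr1: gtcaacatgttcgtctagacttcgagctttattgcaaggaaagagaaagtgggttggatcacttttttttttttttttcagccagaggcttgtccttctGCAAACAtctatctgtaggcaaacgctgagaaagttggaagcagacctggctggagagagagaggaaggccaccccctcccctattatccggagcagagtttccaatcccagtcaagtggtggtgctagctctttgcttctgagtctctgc
Foxa1: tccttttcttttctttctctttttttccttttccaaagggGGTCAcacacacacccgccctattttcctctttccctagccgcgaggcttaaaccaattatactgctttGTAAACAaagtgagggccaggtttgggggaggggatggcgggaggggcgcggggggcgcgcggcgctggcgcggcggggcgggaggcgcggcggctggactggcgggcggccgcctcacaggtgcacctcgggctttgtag
Cited1: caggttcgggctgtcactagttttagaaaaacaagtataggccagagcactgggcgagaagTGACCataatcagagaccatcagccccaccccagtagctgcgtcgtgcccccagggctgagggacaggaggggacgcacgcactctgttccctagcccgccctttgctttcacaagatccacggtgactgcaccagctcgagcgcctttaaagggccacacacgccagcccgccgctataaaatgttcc
Areg: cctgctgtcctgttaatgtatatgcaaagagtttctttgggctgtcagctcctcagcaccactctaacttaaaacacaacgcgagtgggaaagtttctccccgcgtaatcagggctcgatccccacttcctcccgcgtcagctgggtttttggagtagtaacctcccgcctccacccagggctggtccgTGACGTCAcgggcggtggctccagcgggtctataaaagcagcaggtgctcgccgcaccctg
The capitals are the forkhead match in Esr1, the half-site followed by the forkhead match in Foxa1, the half-site in Cited1 and the cyclic AMP response element in Areg. A match describes letters only, and the files hold no binding data.

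The receptors came first in the comparison of levels. Per transcript length, Prlr was by far the most abundant receptor, with 175 RPKM, CPM divided by exon length in kilobases, in puberty and 207 RPKM in the adult, followed by Pgr (12.0 and 22.0 RPKM) and Esr1 (8.10 and 9.38 RPKM). Among the other members, Cited1 (645 RPKM in puberty, 331 RPKM in the adult) and Areg (628 and 336 RPKM) were the highest of the 8 at both stages, and within a stage their counting intervals overlapped. Foxa1 reached 42.6 and 15.8 RPKM, Wnt4 5.51 and 10.8 RPKM, and Tnfsf11 0 and 1.44 RPKM. The exons of 7 of the members overlap no other gene in the GENCODE annotation of the same assembly, and 1.32% of the exonic bases of Prlr are shared with Gm21973.

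Esr1 (chr10:4611989-5005633) was detected in 53 of the 171 cells of puberty (31.0%, 24.2 to 38.5%) and in 28 of the 152 from adults (18.4%, 12.6 to 25.5%). The lowest and median pubertal cells were both at 0 CPM and the highest at 840 CPM, and in the adult the median was again 0 CPM and the highest cell reached 3220 CPM. Most cells of both stages thus held no Esr1 read pair, and the ranges of the stages overlapped from 0 upwards. The stage level was 35.0 CPM (32.2 to 37.9) at puberty against 40.5 CPM (37.4 to 43.9) in adults, a log2 ratio of -0.21, although 1 adult cell alone held 52.3% of the adult sum. That cell lies outside cells 48 to 188. Detection was 15.9% (9.54 to 24.2%) in cells 48 to 188 and 24.4% (12.9 to 39.5%) in the other adult cells. Against cells 48 to 188, which held 6.54 CPM, the log2 ratio was 2.25, and against the other adult cells, at 121 CPM, it was -1.77. Cells with fibroblast markers differed between the stages in Esr1. It was detected in 8 of the 11 such adult cells (72.7%) and in 20 of the remaining 141 (14.2%), whereas in puberty it was found in 2 of 16 such cells (12.5%) and in 51 of the remaining 155 (32.9%). In its other assays the study took total epithelium as CD24+ cells without blood and endothelial lineage markers, a gate aimed at epithelial cells, and whether the same gate was used for these libraries is not given in the sources used here. The adult Esr1 level was 75.5 CPM in the 11 cells with these markers and 37.8 CPM in the remaining 141. In puberty it was 5.00 CPM in the 16 such cells and 38.1 CPM in the remaining 155. What lies behind the difference in detection between the stages was not tested.

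Pgr (chr9:8898900-8968611) was detected in 58 pubertal cells (33.9%, 26.9 to 41.5%) and 43 adult cells (28.3%, 21.3 to 36.2%), so the intervals of the stages overlapped. The median cell was at 0 CPM at both stages, and the highest cell reached 3020 CPM among pubertal and 7830 CPM among adult cells. The stage level was 82.9 CPM (78.6 to 87.3) at puberty against 151 CPM (145 to 158) in adults, a log2 ratio of -0.86. The shares of cells were thus closer than the levels, and 1 adult cell alone held 34.0% of the adult sum. Cells 48 to 188 held 75.9 CPM, for a log2 ratio of 0.13 (0.00 to 0.25), and the other adult cells 331 CPM, for a log2 ratio of -1.99. The sets detected it in 23.4% (15.7 to 32.5%) and 40.0% (25.7 to 55.7%) of cells.

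Prlr (chr15:10177238-10349190) was detected in most cells of both stages, namely in 149 pubertal cells (87.1%, 81.2 to 91.8%) and 118 adult cells (77.6%, 70.2 to 84.0%). Its level ran from 0 to 18940 CPM in puberty with a median of 1200 CPM, and from 0 to 33290 CPM in the adult with a median of 85.0 CPM. The pooled adult cells were spread more widely, with a lower median and a higher top. The median was lower than in puberty in cells 48 to 188, at 40.0 CPM, but higher in the other adult cells, at 1940 CPM. The highest cell reached 26230 CPM in cells 48 to 188 and 33290 CPM in the others, so the higher top held for both sets. The stage levels were 2354 CPM (2331 to 2377) and 2775 CPM (2749 to 2802), a log2 ratio of -0.24. Set apart, cells 48 to 188 held 1636 CPM (log2 ratio 0.52) and the other adult cells 5484 CPM (log2 ratio -1.22). The sign of the stage difference thus turned with the adult set for Esr1 and Prlr. For Pgr the interval against cells 48 to 188, given above, reached down to no difference.

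Of the cofactors, Foxa1 (chr12:57540628-57548029) was the one member above 20 CPM that differed by more than 2-fold between the stages as a whole. It was detected in 85 pubertal cells (49.7%, 42.0 to 57.4%) and 29 adult cells (19.1%, 13.2 to 26.2%). The median was 0 CPM at both stages, the upper quartile 130 CPM among pubertal and 0 CPM among adult cells, and the highest cell 1790 CPM and 1960 CPM. The level was 136 CPM (130 to 142) at puberty against 50.5 CPM (47.0 to 54.2) in adults, a log2 ratio of 1.41 (1.31 to 1.55). It remained above 0 against both adult sets, at 2.41 against cells 48 to 188 and 0.29 against the others. Detection was 14.0% (8.06 to 22.1%) and 31.1% (18.2 to 46.6%) in these sets.

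Cited1 (chrX:102247378-102252181) was detected in 108 pubertal cells (63.2%, 55.5 to 70.4%) and 41 adult cells (27.0%, 20.1 to 34.8%). Its median was 100 CPM in puberty, with a highest cell of 3570 CPM, and 0 CPM in the adult, with a highest cell of 7800 CPM. Cited1 was thus present in more pubertal cells, and the highest adult cell exceeded the highest pubertal cell. The level was 629 CPM (617 to 641) at puberty against 323 CPM (314 to 332) in adults. The log2 ratio was 0.96 (0.91 to 1.01), and it was 1.15 against cells 48 to 188 and 0.59 against the other adult cells. Detection also stood higher in puberty than in either adult set, at 24.3% (16.5 to 33.5%) of cells 48 to 188 and 33.3% (20.0 to 49.0%) of the others.

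Among the ligands, Areg (chr5:91139599-91148432) was detected in 121 pubertal cells (70.8%, 63.3 to 77.5%) and 65 adult cells (42.8%, 34.8 to 51.0%). The level of a cell ran from 0 to 6610 CPM in puberty with a median of 190 CPM, and from 0 to 7620 CPM in the adult with a median of 0 CPM. The stage levels were 753 CPM (740 to 767) and 403 CPM (393 to 413), a log2 ratio of 0.90. Cells 48 to 188 held 227 CPM, a log2 ratio of 1.73. The other adult cells held 822 CPM, for a log2 ratio of -0.13, with detection in 55.6% (40.0 to 70.4%).

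Wnt4 (chr4:137277635-137299501) was found in 35 pubertal cells (20.5%, 14.7 to 27.3%) and 30 adult cells (19.7%, 13.7 to 27.0%), shares that could not be told apart at this depth. The highest cell had 590 CPM at the pubertal stage against 900 CPM for adults, and the cells that detected it had a median of 30.0 CPM and 100 CPM. Adult cells with Wnt4 thus tended to hold more of it. The level was 21.1 CPM (18.9 to 23.3) against 41.2 CPM (38.1 to 44.6), a log2 ratio of -0.94, and it was -0.46 against cells 48 to 188 and -1.67 against the others.

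Tnfsf11 (chr14:78277446-78308043) was rarely detected. No pubertal cell detected it at the common depth (exact upper limit 2.13%). In the adult 3 cells did (1.97%, 0.409 to 5.66%), with 260, 220 and 10 CPM. Before thinning it was found in 1 pubertal and 5 adult cells. The sum of 49 adult read pairs was at least 18.4-fold higher per cell than the limit of 3 read pairs over the pubertal cells, but all save 1 of the 49 came from 2 cells. These 3 cells were all luminal-keratin cells with Esr1 (30, 3220 and 70 CPM) and with Prlr (1940, 17550 and 1730 CPM). Pgr was detected in 1 of them, at 40 CPM. Areg was detected in 2 of them, at 720 and 4070 CPM.

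**Figure D1:**
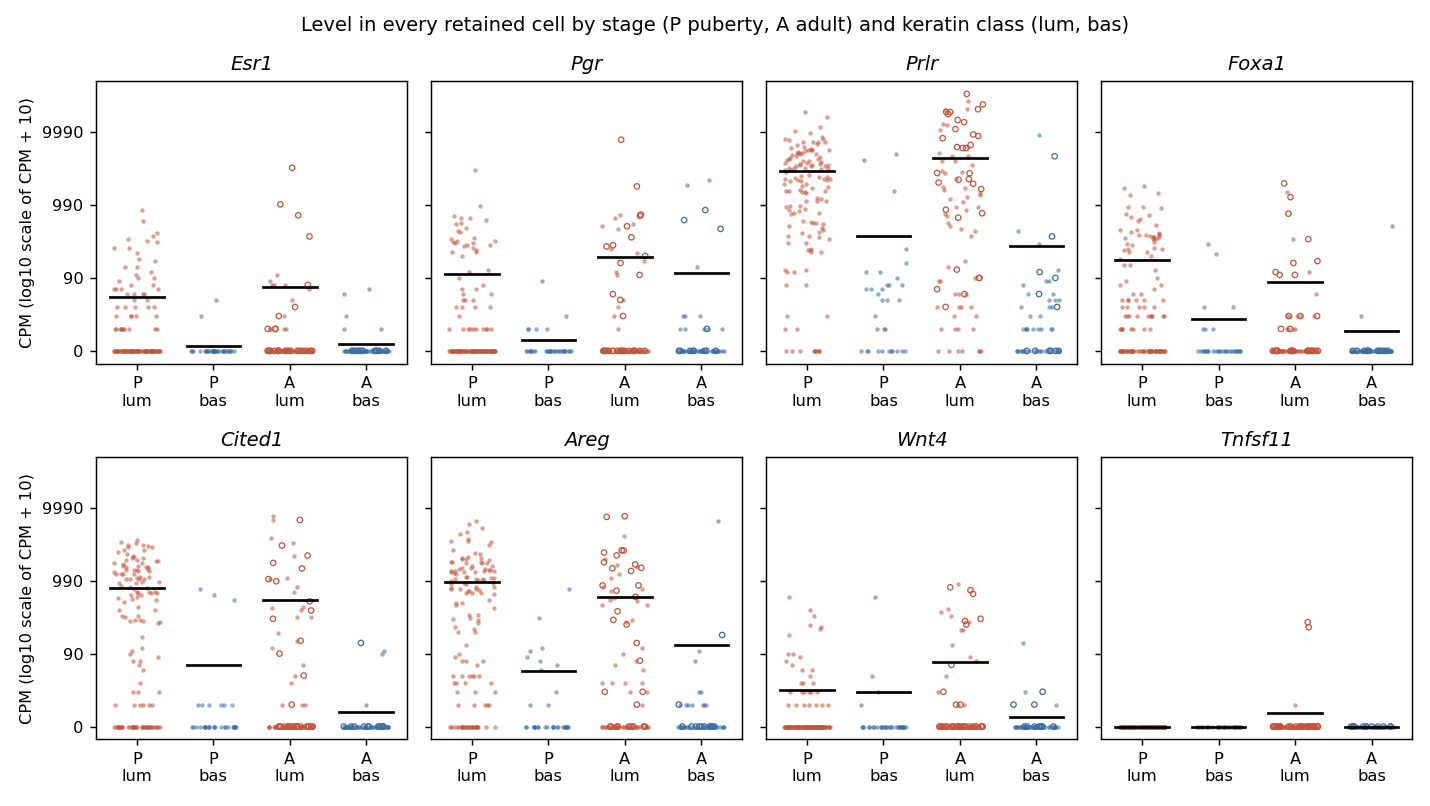
Level of each of the 8 genes in every luminal-keratin (lum, red) and basal-keratin (bas, blue) cell at puberty (P) and in the adult (A), as CPM on a log10 scale of CPM + 10. Open circles are the adult cells outside numbers 48 to 188 and bars are the level over all cells of the class. Prlr is spread over the whole range in luminal-keratin cells of both stages, while Tnfsf11 lies at 0 in all but 3 adult cells.

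Of the 7823 genes that reached 20 CPM in a stage, 19.7% were at least 2-fold higher and 14.3% at least 2-fold lower in puberty than in the adult, with a median log2 ratio of 0.08. Among the 7 members that reached this level (Tnfsf11 did not), 1 was 2-fold higher in puberty, Foxa1, and 0 were 2-fold lower, a share near that of all genes. Their median log2 ratio was -0.21, and adding Tnfsf11 as a lower value moved it to -0.22. Against cells 48 to 188, 4 members were 2-fold higher in puberty (Esr1, Foxa1, Cited1 and Areg) where 25.7% of all genes were, and 0 were 2-fold lower where 15.5% were. Against the other adult cells, 0 were 2-fold higher where 27.9% of genes were, and 4 were 2-fold lower (Esr1, Pgr, Prlr and Wnt4) where 20.1% were. Between the adult sets themselves, 6 of these 7 genes were 2-fold or more higher in the other adult cells, all but Cited1 (log2 ratio 0.56), beside the 27.9% of all genes given above. With the stage sums scaled by TMM, a trimmed mean of gene-wise ratios, 16.8% of all genes were 2-fold higher and 17.2% lower in puberty, the median of all genes was -0.06, and Wnt4 passed 2-fold on the lower side (log2 ratio -1.06) while Foxa1 (1.29) and Cited1 (0.84) stayed above 0.

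Within the keratin classes the stages compared as follows. Among luminal-keratin cells, Foxa1 was again 2-fold higher in puberty (log2 ratio 1.10), as were 22.2% of all genes, and Wnt4 was 2-fold lower (-1.56), as were 17.8%. Among basal-keratin cells, where 5 members reached 20 CPM, 2 were 2-fold higher in puberty, Cited1 (3.22) and Wnt4 (2.26), against 30.2% of all genes. In the same class 2 were lower, Pgr (-4.35) and Areg (-1.33), against 24.3%. The basal-keratin levels of Wnt4 in puberty and of Areg in the adult each lay mostly in 1 cell, as given with the class comparison. Most of the pubertal basal-keratin Cited1 lay in 3 cells, at 770, 630 and 540 CPM. Most of the adult basal-keratin Pgr lay in cells at 2220 and 1870 CPM.

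**Figure D2:**
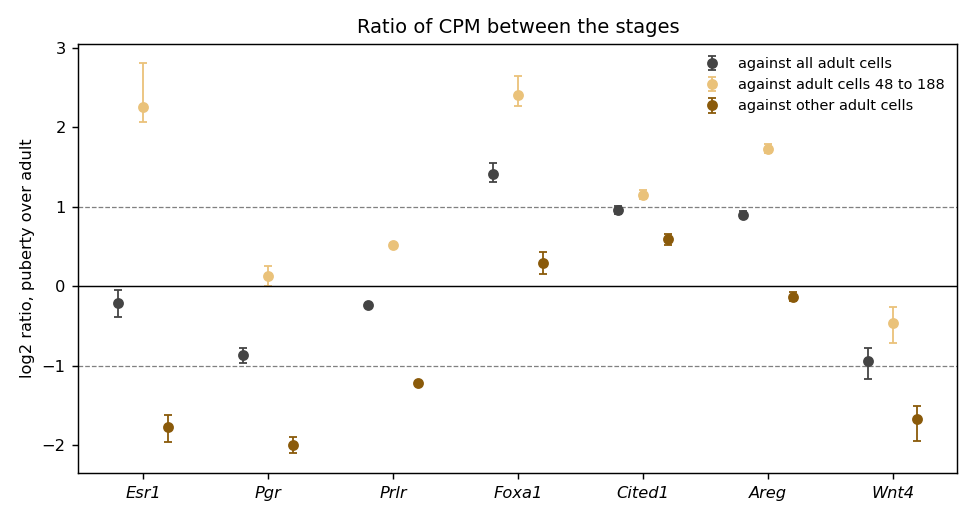
Log2 ratio of CPM, puberty over adult, for 7 genes (Tnfsf11 is left out because no pubertal read pair was drawn), against all 152 adult cells, against adult cells 48 to 188 and against the other adult cells. Points include a prior of 1 CPM, error bars are exact 95% counting intervals and dashed lines mark 2-fold. Foxa1 and Cited1 lie above 0 in all 3 comparisons and Wnt4 below 0 in all 3.

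**Figure D3:**
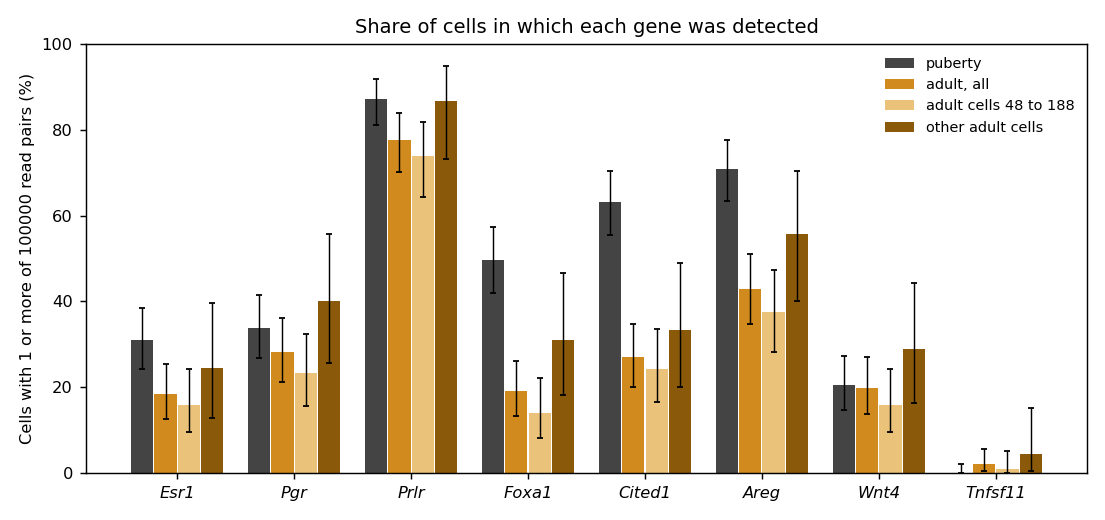
Share of retained cells with at least 1 of 100000 read pairs from each gene, with exact 95% intervals, in puberty (171 cells), in all 152 adult cells and in the 2 adult sets (107 and 45 cells). Foxa1, Cited1 and Areg show the widest gaps between puberty and the adult as a whole, and Wnt4 the smallest among the genes found at both stages.

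The keratin classes sorted the members strongly. In puberty the level in luminal-keratin cells against basal-keratin cells was 43.9 against 1.82 CPM for Esr1 (log2 ratio 3.99), 104 against 4.24 CPM for Pgr (4.32) and 2893 against 360 CPM for Prlr (3.00). The cofactors gave log2 ratios of 3.21 (Foxa1) and 3.67 (Cited1), and Areg one of 4.29. Each of these 6 genes was at least 2-fold higher in luminal-keratin cells, against 27.3% of all genes that reached 20 CPM, and none was 2-fold lower, against 23.0%. Wnt4 was the exception, with 21.8 CPM against 20.0 CPM (log2 ratio 0.12), but 1 of the 33 basal-keratin cells held 89.4% of their Wnt4, and without cells with 3 or more fibroblast markers the log2 ratio was 3.76.

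In the adult, 6 members were again at least 2-fold higher in luminal-keratin cells, where 29.2% of all genes were, and none was 2-fold lower, where 22.8% were. A single basal-keratin cell, adult cell 73, held 93.5% of the Areg and 96.2% of the Foxa1 of that class. It also held 56.9% of the Prlr and 35.5% of the Pgr. The 6 were Esr1 (log2 ratio 4.22), Prlr (4.04), Foxa1 (3.00), Cited1 (6.33), Areg (2.28) and Wnt4 (3.93). Here Pgr was the exception. It stood at 182 CPM in luminal-keratin and 106 CPM in basal-keratin cells (log2 ratio 0.78). Its share of cells was 30.4% (21.3 to 40.9%) against 25.4% (15.0 to 38.4%). The cells that detected it had a median of 225 CPM and 20.0 CPM, and with a limit of 5 read pairs the shares were 23.9% and 10.2%. A single cell held 46.7% of the luminal-keratin sum. Among cells 48 to 188 Pgr was even lower in luminal-keratin than in basal-keratin cells, at 63.2 against 92.1 CPM (log2 ratio -0.54). Cell 73 held 51.3% of that basal-keratin sum. In the other adult cells Pgr was higher in luminal-keratin cells, at 406 against 160 CPM (log2 ratio 1.34). The count of members 2-fold higher in luminal-keratin cells was 4 among cells 48 to 188, where 29.2% of genes were, and 7 among the other adult cells, where 43.1% were.

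Basal-keratin cells give the comparison for detection, although they are no pure type and were not shown to lack these genes. In puberty Esr1 was found in 6.06% and Pgr in 18.2% of them, and Prlr in 66.7%, at a median of 40.0 CPM against 2150 CPM in luminal-keratin cells. The pubertal basal-keratin cells had a median of 581943 read pairs before thinning and the luminal-keratin cells 287361, and in the adult the medians were 378866 and 314201. Detection of Prlr alone thus separated the classes poorly, while its level separated them well. A gap between the classes in adult detection of Pgr could not be shown at this depth. A stricter rule kept only cells with 10 CPM or more of 1 keratin pair and none of the other. Esr1, Pgr and Foxa1 were then detected in 0 of the 9 pubertal basal-only cells, where a limit of 3 cells allows up to 33.3%. Of the 80 luminal-only cells 40.0%, 35.0% and 61.3% detected them. In the adult this rule left 11 luminal-only and 3 basal-only cells. Of these 3 basal-only cells 2 detected Pgr, while none detected Esr1, Foxa1, Cited1, Areg or Wnt4. The Pgr level over the 3 cells was 283 CPM, nearly all of it from 1 cell at 840 CPM.

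Receptors were then read together in single cells. Esr1 or Pgr was detected in 89 pubertal cells (52.0%, 44.3 to 59.7%) and 63 adult cells (41.4%, 33.5 to 49.7%). Both were detected in 22 pubertal cells (12.9%, 8.24 to 18.8%) and in 8 adult cells (5.26%, 2.30 to 10.1%). The shares of cells with Pgr had overlapping intervals whether or not Esr1 was detected. Pgr was found in 41.5% (28.1 to 55.9%) of pubertal cells with Esr1 and 30.5% (22.4 to 39.7%) of those without, and in 28.6% and 28.2% in the adult. Prlr was close to universal in pubertal cells with either receptor. It was found in 52 of 53 pubertal cells with Esr1 and in 58 of 58 with Pgr, against 82.2% and 80.5% of cells without. In the adult it was found in 78.6% of cells with Esr1, against 77.4% without, and in 81.4% of those with Pgr, against 76.1% without.

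The level of Prlr separated adult cells by Pgr more than its detection did. Among adult luminal-keratin cells, the 28 with Pgr had a median of 8505 CPM of Prlr (quartiles 2852 and 17842) and the 64 without had 480 CPM (30.0 and 1782). The medians with and without Pgr were 3200 and 145 CPM in cells 48 to 188, and 11440 and 1245 CPM in the other adult cells, so both sets showed this order. In puberty they were 3135 and 1510 CPM. By Esr1, the pubertal medians were 3450 CPM with it and 1035 CPM without, and the adult ones 1835 and 1010 CPM. Split by set, the adult medians with and without Esr1 were 880 and 525 CPM in cells 48 to 188 and 6325 and 2720 CPM in the other adult cells.

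Cofactors were next read beside the receptors. Foxa1 was detected in 67.9% (53.7 to 80.1%) of the pubertal Esr1 cells and 41.5% (32.5 to 51.0%) of those without, and Cited1 in 84.9% (72.4 to 93.3%) and 53.4% (44.0 to 62.6%). In the adult the values were 28.6% and 16.9% for Foxa1 and 35.7% and 25.0% for Cited1, with overlapping intervals. With Pgr, Cited1 was found in 81.0% against 54.0% in puberty and in 46.5% against 19.3% in the adult. At the common depth all cells with Foxa1 detected Prlr, 85 of 85 pubertal and 29 of 29 adult cells. These shares stood 25.6 and 27.6 points above those of cells without Foxa1. Before thinning, Prlr was found in 100 of 101 pubertal and 40 of 40 adult cells with Foxa1. Both cofactors were found together in 70 pubertal cells (40.9%) and 19 adult cells (12.5%).

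Areg was the ligand that most often shared a cell with a receptor. It was detected in 81 of the 89 pubertal cells with Esr1 or Pgr (91.0%). Taken singly, it was found in 88.7% (77.0 to 95.7%) of pubertal cells with Esr1 and 62.7% (53.3 to 71.4%) of those without, and in 96.6% (88.1 to 99.6%) of those with Pgr and 57.5% (47.9 to 66.8%) of those without. In the adult, Areg was found in 33 of the 63 cells with Esr1 or Pgr (52.4%). With Pgr it was detected in 55.8% (39.9 to 70.9%) against 37.6% (28.5 to 47.4%), and with Esr1 in 46.4% against 41.9%. The low adult value for Esr1 moved with the fibroblast markers, since without cells that had 3 or more of them it was 65.0%, 13 of 20 cells, against 42.1%, 51 of 121, without Esr1. Among all genes detected in at least 10% of pubertal cells, 3.36% were found in a share at least 20 points higher with Esr1 than without and 3.24% with Pgr than without. For each receptor 3 members were (Foxa1, Cited1 and Areg). In the adult 0 members passed for Esr1, where 3.63% of genes did, and 1 for Pgr, Cited1, where 1.62% did. Without cells with 3 or more fibroblast markers, 3 passed for Esr1 in the adult (Cited1, Areg and Wnt4), where 7.48% of genes did, and 2 for Pgr, where 1.84% did.

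The same shares were read within luminal-keratin cells alone, since the receptors and Areg were all more frequent there. In puberty Areg was then found in 90.2% (78.6 to 96.7%) with Esr1 and 75.0% (64.4 to 83.8%) without, and in 96.2% (86.8 to 99.5%) with Pgr and 71.1% (60.1 to 80.5%) without. Adult luminal-keratin cells had it in 75.0% (55.1 to 89.3%) with Pgr and 46.9% (34.3 to 59.8%) without. The members past 20 points within this class were 1 for Esr1 in puberty (Cited1), where 2.77% of genes were, 3 for Pgr in puberty (Foxa1, Cited1 and Areg), where 2.61% were, 0 for Esr1 in the adult, where 8.59% were, and 2 for Pgr in the adult (Cited1 and Areg), where 2.88% were. Pubertal cells with Esr1 had a median of 2971 genes at the common depth and those without 2761, and with and without Pgr they had 2964 and 2717. Before thinning, the cells with Pgr had a median of 501473 read pairs and those without 290507. The part of these gaps in the co-detection was not tested.

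Splitting luminal-keratin cells into 4 receptor states ordered the Areg level. In puberty the median was 40.0 CPM in the 53 cells with neither steroid receptor, 950 CPM in the 30 with Esr1 only, 650 CPM in the 31 with Pgr only and 1290 CPM in the 21 with both, where the lowest cell had 190 CPM. All 21 cells with both receptors detected Areg, so their range did not include the 0 that was found in each of the other states. In the adult the medians were 0 CPM in 50 cells with neither, 60.0 CPM in 14 with Esr1 only, 800 CPM in 20 with Pgr only and 5.00 CPM in 8 with both. The Areg medians of luminal-keratin cells with and without any Pgr were 355 and 0 CPM in cells 48 to 188 and 1635 and 45.0 CPM in the other adult cells. With and without any Esr1 they were 60.0 and 0 CPM in cells 48 to 188 but 15.0 and 720 CPM in the other adult cells. The order by Esr1 thus turned with the adult set. Adult cells with both were few and 4 of the 8 had no Areg. By detection, Areg was in 85.0% (62.1 to 96.8%) of the adult cells with Pgr only and 42.0% (28.2 to 56.8%) of those with neither.

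**Figure D4:**
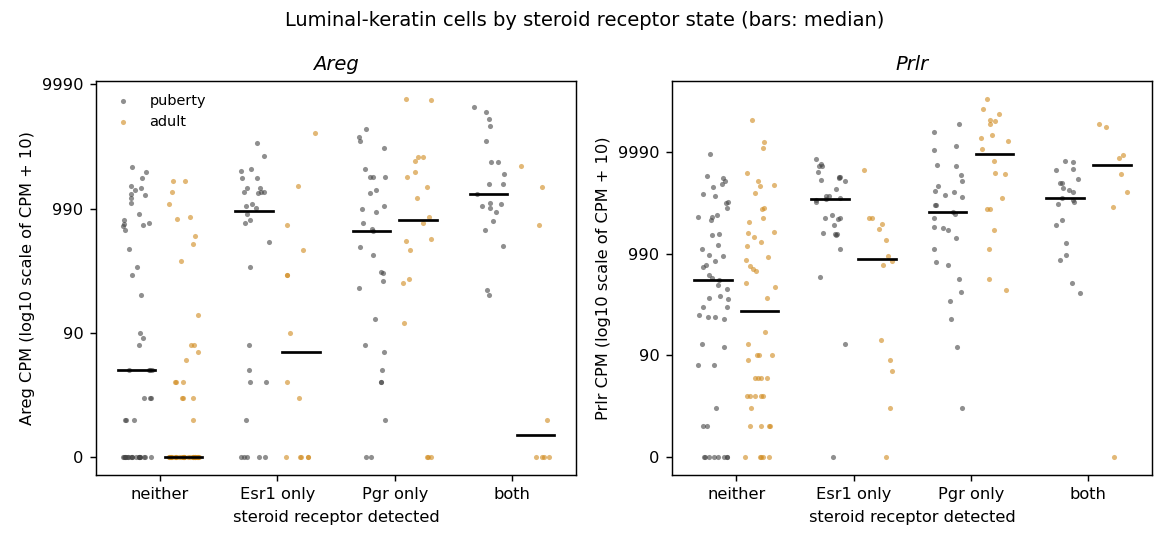
Areg (left) and Prlr (right) in luminal-keratin cells of puberty (grey) and adult (orange), as CPM on a log10 scale of CPM + 10, by whether Esr1, Pgr, both or neither was detected, with bars at the median. Pubertal cells with both receptors all lie at 190 CPM of Areg or above, and the Prlr of adult cells with Pgr only has a median of 9460 CPM against 260 CPM with neither.

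Wnt4 is known as a target of progesterone. It was detected in 25.9% (15.3 to 39.0%) of the pubertal cells that held Pgr and 17.7% (11.2 to 26.0%) of the rest, and the adult shares were 25.6% (13.5 to 41.2%) and 17.4% (10.8 to 25.9%), with overlapping intervals at both stages. With Foxa1 it was found in 31.8% (22.1 to 42.8%) against 9.30% (4.10 to 17.5%) in puberty and in 51.7% (32.5 to 70.6%) against 12.2% (6.99 to 19.3%) in the adult. The adult intervals were apart in cells 48 to 188, at 53.3% (26.6 to 78.7%) against 9.78% (4.57 to 17.8%), but overlapped in the other adult cells, at 50.0% (23.0 to 77.0%) against 19.4% (7.45 to 37.5%). The cells that held Areg and Wnt4 together numbered 30 in puberty (17.5%) and 24 in the adult (15.8%), and of the cells with Wnt4, 30 of 35 and 24 of 30 held Areg. A ligand with no receptor of the 3 was found in 3 pubertal and 4 adult cells. Counting all 8 genes, 65 pubertal cells (38.0%, 30.7 to 45.7%) detected 5 or more and 24 adult cells did (15.8%, 10.4 to 22.6%). The adult share was 11.2% (5.93 to 18.8%) in cells 48 to 188 and 26.7% (14.6 to 41.9%) in the others, the latter overlapping puberty. In each stage 16 cells detected none.

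**Figure D5:**
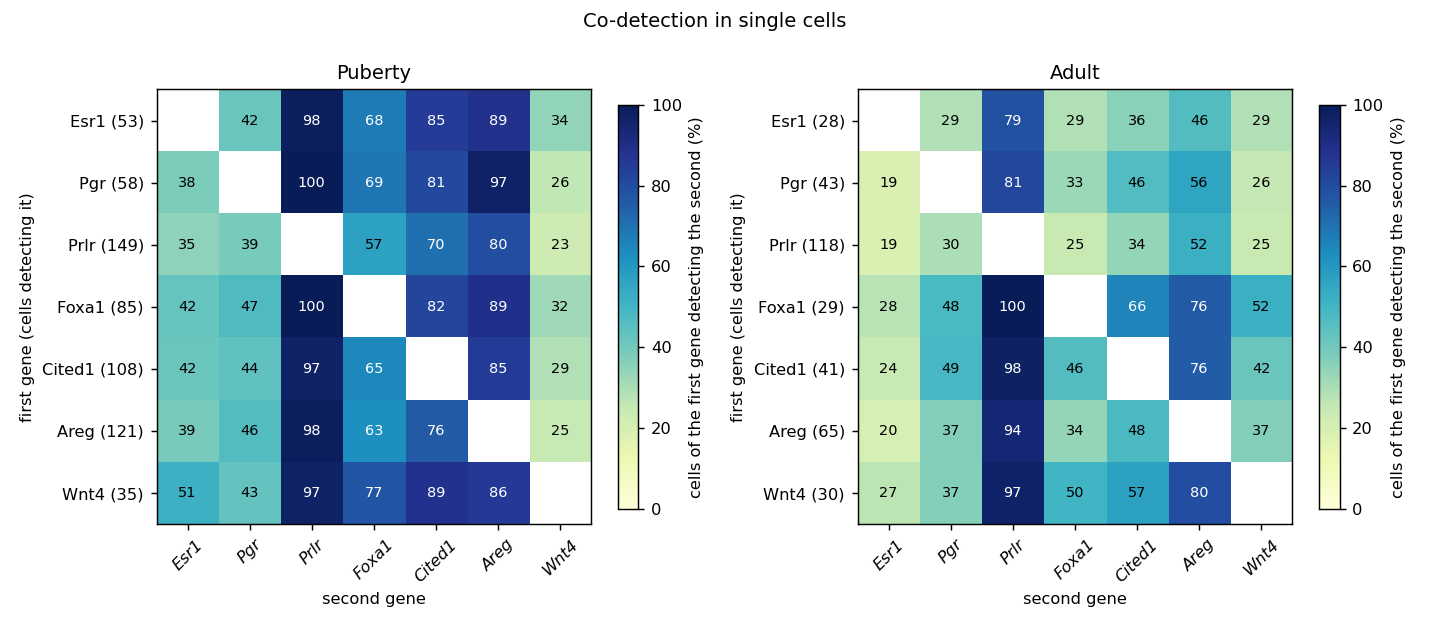
Share of the cells detecting the gene of each line that also detected the gene of each column, in % of the number of cells in brackets. The panels cover the 171 pubertal (left) and 152 adult cells (right). The Prlr column is the darkest at both stages, at 98% or above for 4 of the 6 other genes in puberty, and the Areg column is darker in puberty than in the adult.

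Genes of the receiving side came next. Egfr, which encodes the receptor of amphiregulin, was detected in 14 of the 33 pubertal basal-keratin cells (42.4%, 25.5 to 60.8%) and 10 of 135 luminal-keratin cells (7.41%, 3.61 to 13.2%), at 211 CPM and 15.5 CPM. It was found in 8.26% (4.03 to 14.7%) of the pubertal cells with Areg and 28.0% (16.2 to 42.5%) of those without, and in 1 of 53 cells with Esr1 (1.89%) against 19.5% of those without. In the adult the same shares were 23.1% with Areg and 34.5% without, and 14.3% with Esr1 and 33.1% without. Adult cells 48 to 188 had Egfr in near-equal shares of both keratin classes, at 36.7% of luminal-keratin and 36.2% of basal-keratin cells. The other adult cells had it in 0 of 32 luminal-keratin cells (exact upper limit 10.9%) and in 6 of 12 basal-keratin cells. Tnfrsf11a, the receptor of RANKL, was found in 22 pubertal and 15 adult cells (12.9% and 9.87%), in none of the 3 cells with Tnfsf11, and in 13.8% of pubertal cells with Pgr against 12.4% without. Of the coreceptors of Wnt ligands, Lrp6 was at 72.7 CPM among pubertal and 62.0 CPM among adult cells (log2 ratio 0.23), and Lrp5 was below 20 CPM at both stages, at 1.70 and 0.855 CPM.

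The rest of the pathway was read from 7 lists, chosen with earlier results of these data known, and counted against the background of 19.7% higher and 14.3% lower. Of 6 other receptors, 3 reached 20 CPM and all 3 were at least 2-fold lower in puberty: Nr3c1 (glucocorticoid receptor, log2 ratio -1.17), Vdr (vitamin D receptor, -2.07) and Rara (retinoic acid receptor, -1.70). A single adult cell held 80.7% of Rara, and with the highest cell of each stage left out its log2 ratio was -0.04. Of 10 cofactors and luminal factors, the coactivator Ncoa1 was 2-fold higher (1.19). Gata3, which specifies luminal cells, was level at 532 and 527 CPM (0.01). Of 5 measured hormone targets, Myb was higher (1.86), and Xbp1 (-1.09) and Calca, which encodes calcitonin, were lower. With the highest cells left out Myb, of which 1 pubertal cell held 64.1%, stood at 0.96 and Xbp1 at -0.94, both short of 2-fold. Calca had no pubertal read pair and 978 adult ones from 11 cells, at least 367-fold above the limit of 3 read pairs.

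Prolactin signalling had 5 of 8 genes at 20 CPM or more, of which the feedback inhibitors Socs2 (log2 ratio -1.98) and Socs3 (-4.28) were at least 2-fold lower in puberty and none was higher. Socs3 was found in 5 pubertal and 16 adult cells. Of the 4 genes on the receiving side of amphiregulin, Erbb2, the coreceptor of EGFR, was higher (2.24) and none lower, with Egfr itself at 0.56. Of 6 measured genes of the Wnt side, Lgr4 (1.21) and Fzd6 (1.13) were higher, and Fzd1 (-1.39) and Lgr5 (-2.88) lower. Lgr5 was detected in 4.09% of pubertal cells, 43.9% of adult cells 48 to 188 and 11.1% of the other adult cells. Of 5 measured genes of the RANK side, Nfkb1 (-1.02) and Id2 (-1.57) were lower and none higher. The adult set mattered for several of these genes. Myb stood at 68.0 CPM in puberty against 0.654 CPM in cells 48 to 188 and 59.1 CPM in the other adult cells, and Rara, at 5.50 CPM in puberty, against 27.8 and 2.00 CPM. Fzd6 stood at 48.2 CPM against 7.01 and 55.8 CPM. Vdr, Calca, Socs2, Socs3, Fzd1, Lgr5 and Id2 were at least 2-fold lower in puberty, and Ncoa1 and Erbb2 at least 2-fold higher, against both adult sets. With the highest cells left out this held for Vdr, Calca, Socs2, Ncoa1 and Erbb2. Against the other adult cells Fzd1, of which 1 cell held 93.0%, then stood at 1.31 and Id2 at -0.90, and Socs3 and Lgr5 were under 20 CPM in one of the sets.

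Finally, the genes most alike to each member were ranked by the mean of the within-stage Pearson correlations of log2(CPM + 1) over 171 pubertal and 152 adult cells, among 6420 genes. The cells share their libraries and lineage mix, so these values only describe. Wfdc2, which encodes a secreted whey acidic protein domain protein, was among the 3 genes most like Esr1 (0.30), Prlr (0.65), Cited1 (0.60) and Areg (0.54). AW112010 came first for Prlr (0.66), Foxa1 (0.55) and Cited1 (0.64). Stc2, a secreted glycoprotein of the stanniocalcin family, came first for Pgr (0.46) and second for Areg (0.57). For Areg the closest gene was Prlr (0.63), and for Wnt4 it was Foxa1 (0.38). Tspan1 came first for Esr1, at 0.38, and Tlcd4 was among the 3 closest to Esr1 (0.35), Pgr (0.42) and Foxa1 (0.46). Krt19, a luminal keratin, stood second for Prlr (0.65), and Slc7a2, an amino acid transporter, second for Wnt4 (0.38). Between Esr1 and Pgr themselves r was 0.12 in puberty and 0.06 in the adult.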

How the data were processed

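Libraries of 221 pubertal and 223 adult single cells were used, 1 cell per library. Per the labels and the study's methods, the authors deposited raw counts of read pairs per gene, aligned to mm10 with Subread and assigned with featureCounts to the RefSeq annotation built into Rsubread. Versions and the strand setting are not given in the sources used here. Of 27179 identifiers 25275 were matched to a gene name (the rest held 1.84% of read pairs), and 15 mitochondrial and 124 ribosomal protein genes (16.8% of read pairs) were left out, which left 25136.

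Cells with at least 100000 read pairs and 1500 genes were thinned to 100000 read pairs (Python 3.11.15, NumPy 2.4.6, SciPy 1.17.1, pandas 2.3.3, seed 1). Summed counts per stage or class were expressed as CPM, with exact Poisson intervals, and shares of cells have exact Clopper-Pearson intervals, all at 95% and for counting error only. Log2 ratios carry a prior of 1 CPM on both sides, their intervals are conditional exact binomial ones without the prior, and genes at 20 CPM or more in either group entered the counts past 2-fold. Where no exact upper limit is given, a count of 0 was read against a limit of 3 counts. No doublet caller was run, and per the study's methods capture sites were inspected by microscope. No pair of cells had identical counts (0 found). Scripts were tested on simulated data. Scaling alternatives used edgeR 4.0.16 and DESeq2 1.42.0 under R 4.3.3, and figures Matplotlib 3.10.9.

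The members, pathway lists, keratin rule and adult sets were chosen with earlier results of these data known, the adult sets from levels of the small nuclear RNA Rn7sk. Named genes were the 8 members, the 3 genes most alike to each member found in at least 10% of cells, pathway genes past 2-fold between the stages, and Egfr, Tnfrsf11a, Lrp5 and Lrp6. A gene of the pathway lists is not reported here. The alternatives were other scalings, priors, filters, detection limits, keratin limits and sets of cells. A second thinning of the keratin comparison, shares and co-detection without cells with fibroblast markers, and pathway genes without the highest cell were added after seeing the data.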

Additional observations from a re-analysis of the deposited data

How the results depend on the processing

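No paired analysis was possible because the numbers shared by both stages name cells, and no test was made. Of 117 alternative values of the main quantities 74 moved by less than the counting interval or 1.5 times, 43 moved further and 0 reversed a called value. Only a log2 ratio that was 2-fold or more as reported could be scored as reversed, here and for single genes. Counts, shares and the stage median could therefore not be scored so, and the stage median did change sign between settings. For single genes and pairs the numbers were 266, 212 and 1 of 479. The reversed value was Fzd1 against the other adult cells, -1.25 as reported and 1.31 with each group's highest cell left out, an alternative chosen after seeing the data. The causes of the moves were not tested, beyond the sets of cells and genes each setting itself alters. The median log2 stage ratio of the 7 members other than Tnfsf11, -0.21 as reported, was -0.33 with TMM scaling, -0.32 with size factors, 0.61 with each gene's highest cell left out, 1.15 against adult cells 48 to 188, -1.22 against the other adult cells, -0.56 in luminal-keratin cells, 0.43 in basal-keratin cells and 0.01 without cells with fibroblast markers. The members 2-fold higher in puberty, 1 as reported, numbered 3 without the highest cells, 4 against cells 48 to 188, 0 against the other adult cells, 2 with at least 200000 read pairs and 2500 genes, and 2 in basal-keratin cells. Those 2-fold lower, 0 as reported, numbered 1 with TMM scaling, size factors, no filter on low counts, luminal-keratin cells or no cells with fibroblast markers, 4 against the other adult cells and 2 in basal-keratin cells. Over 13 settings Foxa1 (0.29 to 2.41) and Cited1 (0.56 to 3.22) lay above 0 in all 13.

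The median log2 luminal over basal ratio, 3.67 in puberty and 3.93 in the adult, was 7.36 and 8.62 with exclusive keratins at 10 CPM, 5.99 and 6.77 at 100 CPM, 4.37 and 4.26 without cells near the limit, 4.27 and 5.12 without the highest cells, and 2.97 and 2.50 with a prior of 10 CPM. In puberty it was 3.91 without cells with fibroblast markers and 3.97 with a second thinning, chosen after seeing the data. In the adult it was 1.60 in cells 48 to 188 and 5.63 in the others. Cells with Esr1 or Pgr, 52.0% and 41.4%, made up 33.3% and 24.3% at 5 or more read pairs and 61.4% and 54.6% without thinning. In the adult they made up 49.8% with no filter on cells, 53.3% of the other adult cells and 36.4% of cells 48 to 188. Areg in adult cells with Esr1 or Pgr, 52.4%, was 71.4% in luminal-keratin cells. Without cells with fibroblast markers, also chosen after seeing the data, the adult members 20 points more frequent with Esr1 numbered 3 (0 as reported) and with Pgr 2 (1 as reported). At 1 read pair in 100000, a gene under about 10 CPM in a cell often goes undetected. Thinning took the adult cells with Pgr from 63 to 43, those with Esr1 from 37 to 28 and those with Wnt4 from 40 to 30.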

Other observations

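In puberty 79 of the 171 cells had 10 CPM or more of both keratin pairs, beside 80 with the luminal pair only and 9 with the basal pair only. In the adult 138 of 152 cells had both. Prlr stood at 3456 CPM in the pubertal luminal-only cells, 1593 CPM in the cells with both and 20.0 CPM in the basal-only cells. Areg stood at 974, 645 and 1.11 CPM in the same order. In the adult, the 11 luminal-only cells had Prlr at 9029 CPM and detected Tnfsf11 in 2 cells. These values were not tested.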
